A study of Mus musculus with 6 samples.

Results

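The 10 genes described here are the FGF receptors Fgfr1 and Fgfr4 and 8 inhibitors that the pathway below them induces, namely Spry1, Spry2, Spry4, Spred1, Dusp1, Dusp4, Dusp5 and Dusp6. They were taken by gene symbol from 49652 counted genes, and each matched 1 gene. Expression was measured by bulk RNA-seq in muscle stem cells, which sit on muscle fibres and rebuild them after injury. They were sorted from uninjured mouse hindlimb as α7-integrin+ VCAM+ cells negative for Sca1, CD45 and CD31. The KO group (n = 3 libraries) came from Cre-positive animals of the OPA1-Pax7-CreERT2 line and the WT group (n = 3 libraries) from Cre-negative animals of the same line. All animals were 8 to 10 weeks old and received tamoxifen by gavage on 5 days, and cells were taken 3 days after the last dose. OPA1 is the GTPase that fuses the inner mitochondrial membrane. Pax7-CreERT2 is active in cells that express Pax7, and Cre was present in KO animals only, so effects of Cre and of Opa1 loss cannot be told apart. The sources used here do not give the number of animals behind a library, and p-values therefore measure only the spread of these libraries.

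Fibroblast growth factors bind receptor tyrosine kinases at the cell surface together with heparan sulfate. The receptors recruit the adaptor FRS2 and, through GRB2 and SOS, switch on RAS, the RAF and MEK kinases and finally ERK. ERK in turn induces genes that shut the pathway down: Sprouty and Spred proteins act between receptor and RAF, and dual-specificity phosphatases (DUSPs) remove the activating phosphates from ERK and related kinases. In mouse muscle stem cells FGF signalling drives exit from quiescence and proliferation, and Spry1 is known as a brake that holds the quiescent state.

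Total gene counts were 41410136 to 56591699 in KO libraries and 48329905 to 56606886 in WT libraries. Opa1 itself, the targeted gene, had 17.5, 34.4 and 27.1 CPM (read counts scaled to library size after TMM normalization) in KO libraries and 68.2, 31.4 and 68.8 CPM in WT libraries. The library labelled WT replicate 2 thus lay within the KO range. The reason was not tested and the label was kept as given. Every comparison below includes this library unless stated. Opa1 had a log2 fold change of -1.09 (SE 0.37, edgeR adjusted p 0.99998), and the exact two-sided permutation test over libraries gave p = 0.2, where 3 against 3 cannot go below 0.1. The stem cell markers Chodl and Sdc4 were at 1113 CPM or more in each KO library and 1045 CPM or more in each WT library. Of the 8 stem cell markers listed, Calcr alone did not overlap, at 178, 165 and 228 CPM in KO and 273, 229 and 349 CPM in WT. Its log2 fold change was -0.58 (unadjusted p 0.0244, adjusted p 0.99998 in edgeR). Over all genes tested, 587 (3.12%) lay entirely lower in KO. Pax7 was at 325, 453 and 338 CPM in KO and 350, 398 and 252 CPM in WT. The markers sorted against, Ptprc (CD45), Ly6a (Sca1) and Pecam1 (CD31), reached at most 0.651, 19.2 and 22.5 CPM in KO and 0.337, 13.6 and 20.96 CPM in WT. RNA of other cell types was present, with Acta1 of muscle fibres at up to 234 CPM in KO and 341 CPM in WT. Hbb-bs of red cells reached 142 CPM in KO and 230 CPM in WT. Acta2, a smooth muscle gene, was at 260 to 740 CPM in KO and 313 to 981 CPM in WT. Myh11, the defining smooth muscle marker, was at 5.26, 12.5 and 20.7 CPM in KO and 10.2, 30.3 and 3.42 CPM in WT. Acta2 was highest in replicate 1 of each genotype and Myh11 was not, and the source of the Acta2 RNA was not tested. Libraries also differed within genotypes in sex-linked RNA. Xist, from the inactive X chromosome, was at 401, 393 and 244 CPM in KO and at 355, 0.0209 and 508 CPM in WT. The Y-linked gene Ddx3y was at 0.141, 22.9 and 90.2 CPM in KO and at 0.0354, 226 and 23.3 CPM in WT. KO replicates 2 and 3 and WT replicate 3 thus held RNA of both genes.

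No gene of the 10 passed the test between KO and WT. Over all 18832 genes tested, edgeR's quasi-likelihood test called 0 genes (0%) at an adjusted p under 0.05. DESeq2, run without that filter on 32115 genes, called 25. At an unadjusted p under 0.05 edgeR gave 393 genes (2.09%), of which 204 (1.08%) were higher in KO. All 10 genes passed the filter on low counts, and 1 of them, Spry2, was among those 204. The 3 KO libraries lay entirely above the 3 WT libraries for 646 genes (3.43%), and of the 10 genes this held for Spry2 alone. They lay entirely below for 587 genes (3.12%), none of them among the 10. In all, 7 of the log2 fold changes were positive and 3 negative, with a median of 0.27, beside a median of 0.0062 and 9599 positive values over all genes tested. Fitted on the other 5 libraries, leaving out the one labelled WT replicate 2, log2 fold changes were -1.38 for Opa1, -0.24 for Fgfr1, 0.030 for Fgfr4, -0.056 for Spry1, 0.29 for Spry4, 0.51 for Spred1, 1.29 for Dusp4 and -1.61 for Dusp5, and those of Spry2, Dusp1 and Dusp6 stand with their values.

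**Figure D1:**
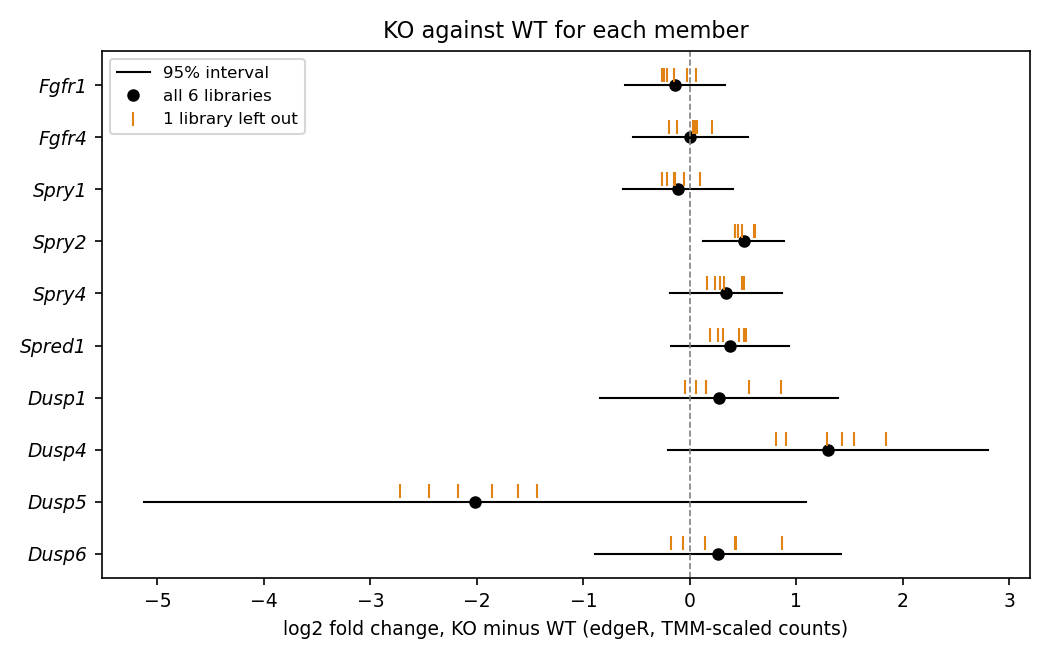
Log2 fold changes, KO minus WT, for the 10 genes (edgeR, 3 libraries a group); black points are the values with all libraries, bars their 95% intervals and orange ticks the values with 1 library left out. The interval of Spry2 (0.13 to 0.88) does not reach 0, and those of the other 9 genes do.

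Levels of different genes were compared per kilobase of merged exons. In both genotypes Dusp1 was the most abundant, with a mean of 781 ± 295 CPM per kilobase in KO and 647 ± 387 in WT (SD, n = 3 each), and over the 6 libraries it stood at place 43 of 13509 protein-coding genes tested. Fgfr4 and Spry1 followed at places 263 and 290, and their ranges overlapped in each genotype. Fgfr1 was at place 774 and Spry2 at place 1107, and their ranges overlapped in KO (53.3 to 72.8 against 47.1 to 60.9 CPM per kilobase) but not in WT (59.3 to 87.4 against 35.2 to 44.8). Dusp6, Spred1 and Spry4, at places 2389, 2959 and 3725, formed a chain in which each neighbour overlapped the next. Dusp4 (place 10289) and Dusp5 (place 12712) were scarce. The order of the 10 means was the same in both genotypes.

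**Figure D2:**
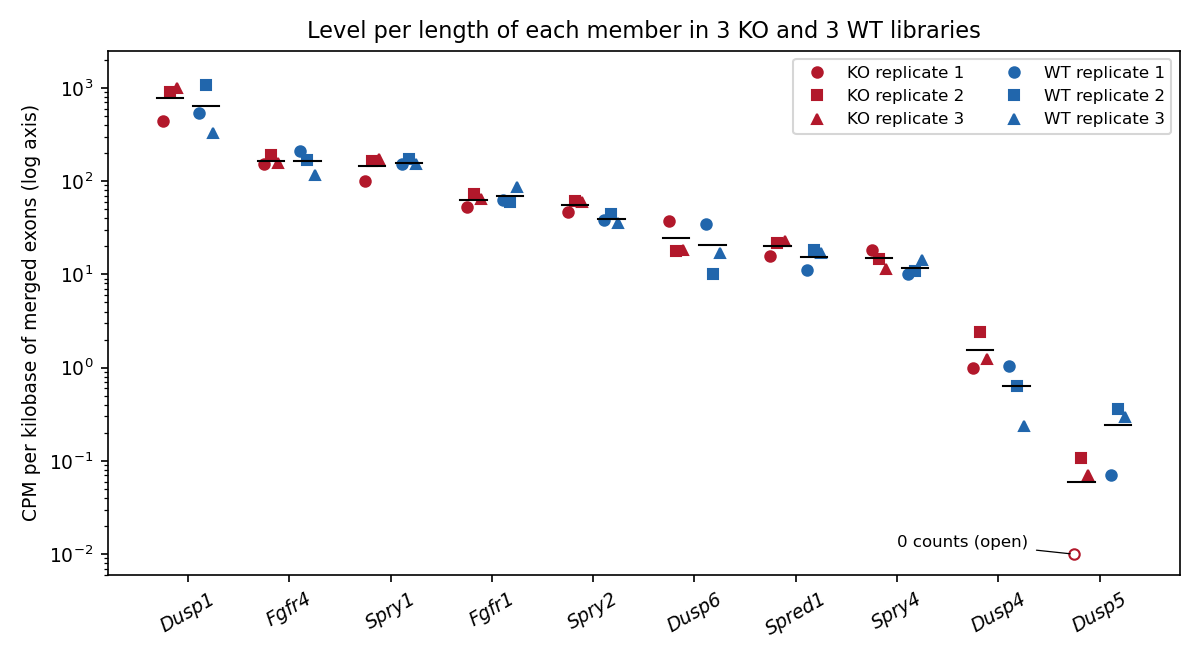
CPM per kilobase of merged exons on a log axis for the 10 genes, ordered by mean; points are single libraries (red KO, blue WT, marker shape the replicate number) and short lines the group means (n = 3). The open point marks Dusp5 in KO replicate 1, which had 0 counts and is drawn at the foot of the axis. Dusp1 stands highest and Dusp5 lowest in both genotypes.

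Both receptors were abundant and neither differed between genotypes beyond the spread of the libraries. Fgfr1 (ENSMUSG00000031565.18, GRCm38 chr8:25513654-25575718, plus strand), the broadly expressed FGF receptor, had 526, 719 and 630 CPM in KO libraries and 617, 586 and 863 CPM in WT libraries. WT replicate 3 was the highest library and KO replicate 1 the lowest, and the groups overlapped. Its log2 fold change was -0.14 (SE 0.20, 95% interval -0.61 to 0.33), and 0.055 without WT replicate 3. That library also had the highest summed level of 8 fibro-adipogenic markers (1353 CPM, against 900 and 1077 CPM in the other WT libraries and 733 to 928 CPM in KO). Dpt alone gave 1196 CPM of that sum. The defining marker Ly6a (Sca1), against which the cells were sorted, was lowest in WT replicate 3, at 4.62 CPM, and Pdgfra was at 2.56 CPM or less in every library. Their part in the Fgfr1 value was not tested. In bulk RNA, fewer cells that express a gene and less RNA per cell cannot be told apart.

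Fgfr4 (ENSMUSG00000005320.9, chr13:55152640-55168759, plus strand), a receptor known for its expression in muscle progenitors, had 536, 668 and 549 CPM in KO libraries and 736, 603 and 407 CPM in WT libraries. All KO libraries fell inside the WT range. Its log2 fold change was 0.0055 (SE 0.23, 95% interval -0.54 to 0.55). Its sign was negative in 4 of 11 alternative analyses.

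Fgfr4 accounted for most of the FGF receptor transcripts per kilobase. Its share of Fgfr1 to Fgfr4 was 74.0%, 72.1% and 70.8% in KO libraries and 76.9%, 74.1% and 56.8% in WT libraries, where WT replicate 3 stood apart from the rest. Fgfr2 and Fgfr3 together made up at most 0.0862% in a KO library and 0.107% in a WT library. These shares rest on merged exon lengths of 9875 bases for Fgfr1 and 3542 bases for Fgfr4. Merged exons pool all annotated transcripts, and which of them were expressed was not tested. Not divided by length, means were 625 CPM for Fgfr1 and 584.5 CPM for Fgfr4 in KO, and 688.4 and 582.2 CPM in WT. Fgfr4 was above Fgfr1 in KO replicate 1 and WT replicates 1 and 2, and below it in the other libraries. The other receptors and co-receptors, a list of 11 genes that includes the heparan sulfate carriers, had 10 genes tested and 0 called, with 5 positive and 5 negative log2 fold changes and a median of 0.080. Sdc4, a syndecan that carries heparan sulfate, averaged 1533 ± 397 CPM in KO and 1371 ± 294 CPM in WT (SD, n = 3 each), and Sdc2 was at 177 ± 37.8 CPM in KO and 177 ± 23.5 CPM in WT. Sdc1 and Sdc3 had the smallest unadjusted p of the list in edgeR, at 0.464 and 0.447, with log2 fold changes of 0.27 and 0.24.

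Spry2 was the gene of the 10 whose libraries separated by genotype, although it did not pass over all genes. Spry2 (ENSMUSG00000022114.5, chr14:105891947-105896819, minus strand), a Sprouty protein that limits RAS-ERK signalling below receptor tyrosine kinases, had 98.3, 127 and 126 CPM in KO libraries and 80.5, 93.4 and 73.6 CPM in WT libraries. Each KO library was above each WT library, the closest pair being KO replicate 1 and the library labelled WT replicate 2. The mean was 117 ± 16.2 CPM in KO and 82.5 ± 10.1 CPM in WT (SD, n = 3 each), or 142% of WT. KO minus WT, this was a log2 fold change of 0.50 (SE 0.16, 95% interval 0.13 to 0.88), with an unadjusted p of 0.0162 and an adjusted p of 0.99998 in edgeR's quasi-likelihood test, at place 102 by p among all genes. Leaving out the library labelled WT replicate 2 gave 0.60 (SE 0.18). The value stayed positive with each library left out, from 0.43 to 0.62. Its unadjusted p in edgeR was above 0.05 without KO replicate 2 (0.0717), KO replicate 3 (0.0581) or WT replicate 3 (0.0540).

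Spry1 (ENSMUSG00000037211.12, chr3:37639947-37644598, plus strand), the Sprouty gene known to restrain cycling of muscle stem cells, had 291, 478 and 507 CPM in KO libraries and 439, 496 and 445 CPM in WT libraries. KO replicate 1 was far below the other 5 libraries, which ranged from 439 to 507 CPM. Spry1 had a log2 fold change of -0.11 (SE 0.22, 95% interval -0.63 to 0.41) and 0.10 without KO replicate 1. Spry1 shares 710 exon bases with Gm42922 on the opposite strand, 24.4% of its exon length. Gm42922 had 60 to 138 counts in KO and 96 to 112 counts in WT, beside at least 14473 counts of Spry1, and the strand setting of the counting is not known here.

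Spry4 (ENSMUSG00000024427.7, chr18:38586247-38601415, minus strand), another Sprouty inhibitor, had 87.3, 70.2 and 54.9 CPM in KO libraries and 47.8, 51.9 and 68.3 CPM in WT libraries. The groups overlapped, with KO replicate 3 below WT replicate 3. Its log2 fold change of 0.34 (SE 0.22, 95% interval -0.19 to 0.86) lay between 0.16, without KO replicate 1, and 0.51, without WT replicate 3, when a library was left out.

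In KO libraries a smaller share of the Sprouty transcripts came from Spry1 and a larger share from Spry2. Spry1 contributed 60.4%, 68.5% and 70.9% of the Spry1, Spry2 and Spry4 transcripts per kilobase in KO libraries, against 75.6%, 75.4% and 75.5% in WT libraries. Spry2 contributed 28.5%, 25.4% and 24.5% in KO and 19.3%, 19.8% and 17.4% in WT, so the groups did not overlap for either share. Both shares use the Spry2 values that separated above, and a larger Spry2 share lowers the others. They are therefore not results separate from the levels of Spry1, Spry2 and Spry4, and how often shares of other genes separate was not computed. KO replicate 1, with the lowest Spry1 share, had the lowest Spry1 (291 CPM) and highest Spry4 (87.3 CPM) of all libraries. Its Spry2, at 98.3 CPM, was the lowest of the KO libraries. The difference in mean Spry1 share, KO minus WT, was -8.90 percentage points, and with a library left out it lay between -11.05 points, without KO replicate 3, and -5.80 points, without KO replicate 1. The mean Spry2 share was 7.30 percentage points higher in KO, and between 6.12 and 8.12 points higher with a library left out. The Spry4 share overlapped, at 11.1%, 6.15% and 4.68% in KO and 5.04%, 4.82% and 7.09% in WT. These shares were computed after the levels were known, and an exact test of 3 against 3 libraries could not give a p below 0.1.

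**Figure D3:**
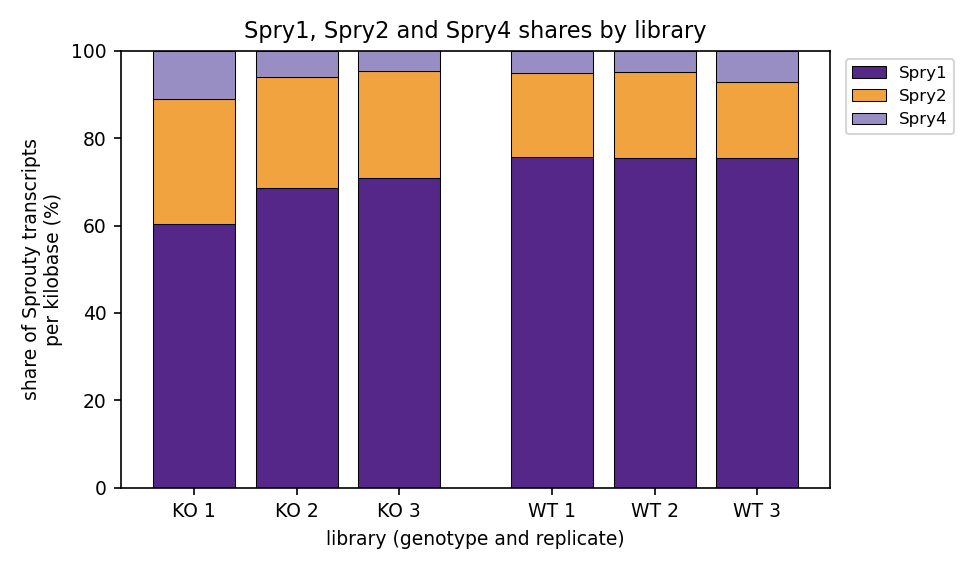
Stacked shares (%) of Spry1, Spry2 and Spry4 among their summed CPM per kilobase in each library, KO on the left and WT on the right. Spry1 takes 60.4% to 70.9% in KO libraries and 75.4% to 75.6% in WT libraries, and Spry2 takes 24.5% to 28.5% in KO and 17.4% to 19.8% in WT.

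Spred1 (ENSMUSG00000027351.14, chr2:117121374-117182279, plus strand), which brings the RAS inhibitor neurofibromin to the membrane, had 106, 146 and 157 CPM in KO libraries and 75.1, 122.9 and 116 CPM in WT libraries. KO replicate 1 and WT replicate 1 were each the lowest library of their group, and the groups overlapped. Spred1 had a log2 fold change of 0.38 (SE 0.23, 95% interval -0.17 to 0.93), with an unadjusted p of 0.149 in edgeR. With a library left out it lay between 0.19, without WT replicate 1, and 0.53, without KO replicate 1. With the share of reads without a feature as a covariate it was 0.31 (SE 0.11) and the unadjusted p 0.0266, and the adjusted p was 1. Those shares were 11.57%, 15.45% and 17.02% in KO and 11.15%, 16.27% and 14.64% in WT, so replicate 1 was the lowest of each group here too. Its part in the Spred1 value was not tested beyond that fit.

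The promoters of the 4 genes whose patterns the remaining results turn on are given as the 150 bases before the RefSeq start site (GRCm38.p6), 5′ to 3′ on the strand of the gene. Of the 10 genes, 7 had an entry, namely Fgfr4, Spry1, Spry2, Spred1, Dusp1, Dusp5 and Dusp6. Capitals mark matches, on either strand, to the CRE TGACGTCA, its half-site TGACG, the AP-1 site TGACTCA, the ETS site CCGGAAG, the TATA box TATAAA or the CArG box. The half-site lies within the full CRE, and the CArG box, the site of serum response factor, reads the same class of letters on both strands.
Spry2, chr14:105896820-105896969, minus strand: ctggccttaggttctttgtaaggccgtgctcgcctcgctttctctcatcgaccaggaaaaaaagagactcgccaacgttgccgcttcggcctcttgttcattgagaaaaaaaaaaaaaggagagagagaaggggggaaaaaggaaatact
Dusp1, chr17:26508473-26508622, minus strand: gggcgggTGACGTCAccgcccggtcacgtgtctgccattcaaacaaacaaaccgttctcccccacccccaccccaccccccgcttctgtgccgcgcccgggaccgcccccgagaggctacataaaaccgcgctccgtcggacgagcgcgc
Dusp5, chr19:53528995-53529144, plus strand: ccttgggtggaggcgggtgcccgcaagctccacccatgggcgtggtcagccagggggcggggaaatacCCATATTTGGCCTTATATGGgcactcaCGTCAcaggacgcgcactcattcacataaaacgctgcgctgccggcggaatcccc
Dusp6, chr10:99263081-99263230, plus strand: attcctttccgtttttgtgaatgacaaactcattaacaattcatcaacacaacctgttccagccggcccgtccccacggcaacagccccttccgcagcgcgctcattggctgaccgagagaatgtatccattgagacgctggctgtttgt
Dusp1 holds a full CRE from 143 to 136 bases before the start, and Dusp5 holds 2 adjoining CArG boxes from 82 to 63 bases before it. In the 250 bases before the start that were searched, Dusp1 has 1 more half-site, 191 to 187 bases before it, and Dusp5 has 1 half-site from 55 to 51 bases before it. The other 5 promoters had no match in that window. Among 32851 RefSeq promoters of the same length, 1.55% held the CRE, 17.8% the half-site, 4.46% the AP-1 site, 6.91% the ETS site, 12.4% the TATA box and 1.47% a CArG box. A match describes the letters and does not show that a factor binds there.

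Dusp1 was the most abundant of the phosphatases and varied more within each genotype than between them. Dusp1 (ENSMUSG00000024190.7, chr17:26505590-26562128, minus strand) encodes a nuclear phosphatase of p38, JNK and ERK and is itself an immediate early gene. It had 1475, 2975 and 3311 CPM in KO libraries and 1760, 3569 and 1093 CPM in WT libraries. KO replicates 2 and 3 and the library labelled WT replicate 2 were high, and KO replicate 1 and WT replicates 1 and 3 were low. Dusp1 had a log2 fold change of 0.27 (SE 0.47, 95% interval -0.85 to 1.39). Leaving out the library labelled WT replicate 2 gave 0.86, and leaving out WT replicate 3 gave -0.043.

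Most immediate early genes on the list were high and low in the same libraries as Dusp1. For 12 of 15, KO replicate 1 was the lowest KO library and the library labelled WT replicate 2 the highest WT library. This did not hold for Hspa1a, Hspa1b and Klf6. The share of all genes with this order was not counted, so the order is not shown to be particular to the list. The summed level of the 15 genes on the list, among them Fos and Jun, was 13500, 34950 and 33060 CPM in KO and 16260, 28940 and 6926 CPM in WT. Fos alone was at 2970, 8189 and 7987 CPM in KO and at 3440, 7266 and 1365 CPM in WT. Such genes are also induced while tissue is digested and cells are sorted, and the part of that handling in the Dusp1 values was not tested. RNA of other cell types also varied between the libraries. Summed mature fibre markers were at 166, 227 and 417 CPM in KO and at 243, 552 and 151 CPM in WT, and summed Schwann cell markers at 45.5, 43.3 and 121 CPM in KO and at 62.3, 129 and 13.4 CPM in WT. As for Dusp1, the library labelled WT replicate 2 was highest and WT replicate 3 lowest for both lists, and their part in the Dusp1 values was not tested. Over the 6 libraries, the genes of mean log2 CPM of at least 4 whose deviations from their own mean were most like those of Dusp1 were Tmem176a, Taf7l and Gstt2, with root mean square differences of 0.063, 0.092 and 0.132 on the log2 scale. Tmem176a was at 82.4, 154 and 193 CPM in KO and at 97.7, 185 and 58.1 CPM in WT.

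Dusp6 was ordered differently over the libraries than Dusp1. Dusp6 (ENSMUSG00000019960.8, chr10:99263231-99267489, plus strand), the cytoplasmic phosphatase specific for ERK and a widely used readout of FGF signalling, had 118, 56.1 and 57.5 CPM in KO libraries and 108, 31.5 and 52.9 CPM in WT libraries. Replicate 1 was the highest library of each genotype, and the library labelled WT replicate 2 was the lowest of all. Its log2 fold change was 0.26 (SE 0.49, 95% interval -0.89 to 1.42). It turned to -0.17 without KO replicate 1 and to -0.063 without the library labelled WT replicate 2. With the share of reads without a feature as a covariate it was 0.54 (SE 0.19), with an unadjusted p of 0.0315 and an adjusted p of 1 in edgeR.

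Cell cycle genes were also highest in KO replicate 1. The summed level of the 10 genes on the list was 699, 108 and 87.9 CPM in KO and 329, 89.0 and 294 CPM in WT, so WT replicate 3 was high for the list but not for Dusp6. Top2a, which untangles DNA in dividing cells, was at 141, 2.80 and 2.52 CPM in KO and at 52.5, 1.48 and 54.0 CPM in WT. The part of cycling cells in the Dusp6 values was not tested. The genes most like Dusp6 over the 6 libraries were Rtkn, Tnfrsf12a, the TWEAK receptor, and Spats2l, with root mean square differences of 0.073, 0.143 and 0.148. Tnfrsf12a was at 54.4, 28.8 and 22.04 CPM in KO and at 55.8, 15.1 and 24.7 CPM in WT.

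**Figure D4:**
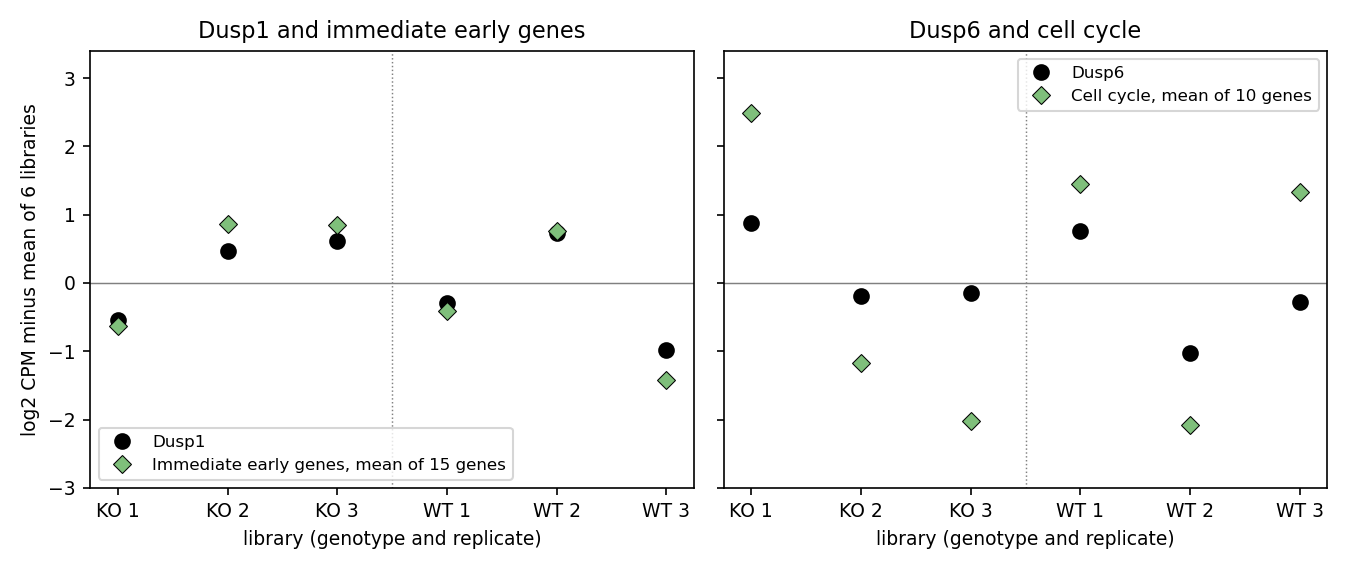
Log2 CPM minus the mean of the 6 libraries for Dusp1 with the mean of 15 immediate early genes (left) and for Dusp6 with the mean of 10 cell cycle genes (right), KO libraries left of WT libraries in each panel; circles are the phosphatase and diamonds the list. Dusp1 and the mean of the immediate early genes are low in KO replicate 1 and WT replicates 1 and 3, with Dusp1 at 1475 CPM in KO replicate 1 against 3569 CPM in the library labelled WT replicate 2, and Dusp6 is highest in replicate 1 of each genotype.

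Dusp4 (ENSMUSG00000031530.6, chr8:34807297-34819894, plus strand), a nuclear phosphatase of ERK, was scarce at 135, 277 and 195 counts in KO libraries and 160, 83 and 35 counts in WT libraries. In CPM this was 2.71, 6.68 and 3.44 in KO and 2.83, 1.73 and 0.655 in WT. The groups overlapped through KO replicate 1 and WT replicate 1, which were close. Dusp4 had a log2 fold change of 1.30 (SE 0.63, 95% interval -0.20 to 2.79, unadjusted p 0.0803 in edgeR), and with a library left out it lay between 0.81, without KO replicate 2, and 1.84, without WT replicate 1. Plekha6 was the gene most like it, at a root mean square difference of 0.323, with 25.7, 37.4 and 32.8 CPM in KO and 17.6, 17.5 and 4.96 CPM in WT. Ass1 and Cdc25b followed at 0.420 and 0.435.

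Dusp5 (ENSMUSG00000034765.6, chr19:53529109-53542431, plus strand), a nuclear phosphatase specific for ERK, was close to the limit of detection. It had 0, 11 and 10 counts in KO libraries and 10, 43 and 39 counts in WT libraries, where a count of 0 in KO replicate 1 allows up to 3 counts, or 0.0602 CPM, for counting error alone. The groups overlapped through KO replicate 2 and WT replicate 1. Its log2 fold change of -2.02 (SE 1.31, 95% interval -5.13 to 1.09) was the most negative of the 10 and also the least precise, and it was -1.44 without KO replicate 1. Dusp5 shares 547 exon bases (22.1% of its exon length) with AC137853.2 on the opposite strand, which had 0 to 31 counts in KO and 0 to 6 counts in WT, so its values are uncertain. The nearest patterns were those of Lama3, Adamts15 and Nfil3, at 0.680 to 0.808. For Spred1 they were B3galt1, Inpp4a and Nr2c2, at 0.094 to 0.100.

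In the rest of the pathway no gene was called. The RAS-ERK cascade had 23 of 23 genes tested and 0 called in either direction, with 13 positive and 10 negative log2 fold changes, a median of 0.039 and 0 genes at an unadjusted p under 0.05. The RAF kinase gene Araf was at 138 ± 19.1 CPM in KO and 134 ± 6.84 CPM in WT (SD, n = 3 each). The smallest unadjusted p in edgeR belonged to Rps6ka3, a kinase activated by ERK (log2 fold change -0.33, p 0.147), and to the RAS activator Sos2 (0.25, p 0.225).

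Other feedback inhibitors and phosphatases had 15 of 15 genes tested, 0 called, 7 positive and 8 negative values and a median of -0.036. Errfi1, an inhibitor of the EGF receptor, was at 617 ± 88.4 CPM in KO and 680 ± 447 CPM in WT, and the phosphatase gene Dusp3 at 318 ± 19.7 CPM in KO and 327 ± 19.9 CPM in WT (SD, n = 3 each). Spred3, a relative of Spred1, had 2.65, 3.11 and 3.65 CPM in KO libraries and 2.35, 1.80 and 1.72 CPM in WT libraries, without overlap, and a log2 fold change of 0.68 (SE 0.38, unadjusted p 0.113 in edgeR). Dusp14 had 9.52, 7.50 and 2.15 CPM in KO and 10.3, 11.7 and 14.3 CPM in WT, also without overlap, and a log2 fold change of -0.92 (SE 0.53, unadjusted p 0.122). Over all genes tested, the libraries of the 2 genotypes did not overlap for 1233 (6.55%).

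The list of transcription factors and targets of ERK, which holds Elk1, Elk3 and Elk4 beside induced genes, had 14 of 14 genes tested. Of these 0 were called, with 8 positive and 6 negative values and a median of 0.090. Egr1, an immediate early gene, was at 2388, 6403 and 5505 CPM in KO and at 2924, 5035 and 725 CPM in WT, high and low in the same libraries as Dusp1. Ccnd1, the cyclin that starts the cell cycle, was at 800, 136 and 90.5 CPM in KO and at 681, 103 and 133 CPM in WT, with replicate 1 highest in each genotype as for Dusp6. Etv5, an ETS factor induced by FGF signalling and named after its values were seen, had 149, 107 and 96.5 CPM in KO and 145, 66.5 and 78.5 CPM in WT, again highest in replicate 1. Its relative Etv4 was also highest there, at 6.93, 5.81 and 2.04 CPM in KO and 5.90, 0.0209 and 2.41 CPM in WT. Etv1 went the other way and was lowest in replicate 1 of each genotype. It had 6.65, 8.56 and 10.4 CPM in KO and 8.75, 13.9 and 11.6 CPM in WT. The smallest unadjusted p of this list in edgeR were those of Fosl1 (log2 fold change -2.45, SE 1.47, p 0.139) and Egr2 (1.76, SE 1.07, p 0.146). Fosl1 was scarce, with 1, 1 and 24 counts in KO and 25, 7 and 109 counts in WT. Egr2 had 48, 313 and 344 counts in KO and 47, 156 and 12 counts in WT. As for Dusp1, KO replicate 1 was its lowest KO library and the library labelled WT replicate 2 its highest WT library.

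Of 22 FGF genes, 8 passed the filter on low counts and 0 were called, with 4 positive and 4 negative values. Most abundant were Fgf13 and Fgf11, members of the family that act inside the cell rather than on the receptors, at 39.0 ± 6.24 and 17.4 ± 0.867 CPM in KO and 42.3 ± 17.8 and 17.2 ± 0.978 CPM in WT (SD, n = 3 each). The secreted ligand Fgf2 had 6.93, 12.5 and 8.70 CPM in KO and 6.40, 27.0 and 9.56 CPM in WT, where the library labelled WT replicate 2 stood above the rest, and a log2 fold change of -0.61 (SE 0.56, unadjusted p 0.307 in edgeR). Fgf9 stayed under 1 CPM in each library and had a log2 fold change of -1.56 (SE 0.86, unadjusted p 0.113).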

How the data were processed

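RNA-seq libraries of sorted muscle stem cells, 3 KO and 3 WT, were each deposited as unnormalized read counts by gene. The build was GRCm38, and reads were trimmed with cutadapt 2.5 and Trim Galore 0.5.0, aligned with STAR 2.6.0c and counted with HTSeq 0.6.1p2, per the submitters' processing notes, which also list DESeq2 and edgeR. Annotation release and strand setting: not given in the sources used here. Besides 49652 genes, a file has 5 rows that name no gene. These rows entered neither library sizes nor tests (as shares of all reads, 11.15% to 17.02% had no feature, 1.21% to 1.42% were ambiguous and 14.82% to 24.57% aligned more than once). No 2 libraries were identical. Symbols, positions and merged exon lengths came from GENCODE M21 (GRCm38), which matched 49399 gene rows, and promoters from RefSeq GRCm38.p6.

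KO was compared with WT by edgeR 4.0.16 (R 4.3.3, limma 3.58.1): quasi-likelihood test with robust estimation, TMM scaling, the package's filter on low counts (18832 genes kept), no covariate, and Benjamini-Hochberg adjustment over those genes, a gene being called below 0.05. Log2 fold changes (KO minus WT) used a prior count of 0.125, and SE is the absolute value over the square root of F. Intervals are 95%. Opa1 had an exact permutation test on log2 CPM (prior count 2). Alternatives were DESeq2 1.42.0, its size factors within edgeR, no filter, the share of reads without a feature as a covariate, the replicate number as a block, and leaving out each library. The scripts were tested on simulated counts. Tables and plots used Python 3.11.15, pandas 2.3.3 and matplotlib 3.10.9. With 41410136 or more gene counts in a library, counting error matters only for Dusp4 and Dusp5 among the 10 genes.

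The 10 genes, the lists and the tests were chosen with earlier results of these data known. The text names the 10 genes and Opa1, the 2 genes with the smallest p and the 2 most abundant of each pathway list, abundant and defining genes of the marker lists, and, for genes spanning at least 1 log2 unit over libraries, the 3 with the nearest pattern. Calcr, Pax7, Elk1, Elk3, Elk4, Etv1, Etv4, Etv5, Ddx3y, Xist, Hspa1a, Hspa1b, Klf6, Klb and the FGF genes under the filter were named after their values were seen. Of the genes this rule names, 1 is not reported here.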

Additional observations from a re-analysis of the deposited data

How the results depend on the processing

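None of the 10 genes was called by edgeR or DESeq2 under any of the 11 alternatives run. DESeq2 called 25 of all genes (14 higher and 11 lower in KO) where edgeR called 0 in each of its runs, and the cause was not tested. Of the 10 genes, 1 had an unadjusted p under 0.05 with all libraries in edgeR, 2 in DESeq2 (Spry2 and Dusp4), 2 with the replicate block (Spry2 and Spred1), 3 with the share of reads without a feature as a covariate (Spry2, Spred1 and Dusp6), and 0 to 2 with a library left out. The sign of Fgfr4 turned without the filter (-0.019) and in DESeq2 (-0.0028). With a library left out, log2 fold changes ranged from -0.20 to 0.21 for Fgfr4, -0.27 to 0.055 for Fgfr1, -0.26 to 0.10 for Spry1, -0.043 to 0.86 for Dusp1 and -0.17 to 0.87 for Dusp6, each crossing 0, while Spry2, Spry4, Spred1, Dusp4, Dusp5 and Opa1 (-1.38 to -0.87) kept their sign in all alternatives. The Spry4 share of Sprouty transcripts ranged from -0.23 to 2.98 percentage points, KO minus WT.

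Equal replicate numbers do not pair the libraries by the labels. Deviations from the group means correlated at 0.528, 0.273 and 0.076 for pairs 1 to 3 over 8251 genes, KO replicate 3 correlated best with the library labelled WT replicate 2 (0.423), and with the replicate block 0 genes were called and 515 had an unadjusted p under 0.05, against 393 without it. Of the 10 genes, counting limits only Dusp4 and Dusp5.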

Other observations

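The filter on low counts removed 14 FGF genes and the co-receptor gene Klb, and some of these had reads in a few libraries only. They are given as values with no test, and the share of all filtered genes with reads in only KO or only WT libraries was not counted. Fgf21, a secreted hormone known to be induced by mitochondrial stress in mouse muscle, had 22, 24 and 0 counts in KO libraries and 0 counts in each WT library, where 0 allows up to 3 counts. In CPM this was 0.442 and 0.579 in KO replicates 1 and 2. Klb, which encodes the co-receptor of FGF21, had 0, 6 and 16 counts in KO libraries and 0 in each WT library, so the 2 genes were found together in KO replicate 2 alone. Fgf17 lay the other way, with 1, 1 and 0 counts in KO libraries and 0, 14 and 26 counts in WT libraries, and Fgf10 had 11 counts in WT replicate 1 and 0 in each other library.

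Fgf4, Fgf6 and Fgf3 were found in the library labelled WT replicate 2 and in no other, at 90, 76 and 9 counts. Fgf6 is an FGF known for its expression in muscle. The same library had 27.0 CPM of Fgf2, the highest of the 6, and 1 count of Etv4, an ETS factor downstream of FGF signalling that had 345, 241 and 116 counts in KO libraries and 334 and 129 counts in WT replicates 1 and 3. It is also the WT library whose Opa1 level lay within the KO range, and the one with Xist at 0.0209 CPM, against 244 CPM or more in each of the others. Its Y-linked Ddx3y was at 226 CPM, against 90.2 CPM or less in each of the others. The part of sex in the values of this library was not tested.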
